A study of Mus musculus with 5 samples.

Results

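The comparison concerns 2 kinds of cartilage in the knee of the mouse embryo at E14.5: reference cartilage, a single region per animal that the tags of the deposited table call a control region, and border-zone cartilage, the cartilage regions that the tags place in the border zone. Regions were assigned by the tag alone, which gave 4 reference regions and 60 border-zone regions out of 46, 40, 47 and 46 regions of all kinds in control 1, control 2, GOF 1 and GOF 2. The word control in that tag names a region and not a genotype, and no label defines either tag or says how far apart the regions lie. Of the 4 animals, control 1 and control 2 carried the Prrx1-Cre driver alone, with 16 and 13 border-zone regions. GOF 1 and GOF 2 carried the same driver and a gain-of-function (GOF) form of Pdgfra, the alpha receptor for platelet-derived growth factor, with 15 and 16 border-zone regions. All 4 animals therefore carried Cre, and Prrx1-Cre is a driver active in early limb bud mesenchyme, from which both limb cartilage and limb connective tissue arise. RNA was read with GeoMx, in which barcoded probes bound to a fixed section are released by light from a drawn region and sequenced.

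Embryonic cartilage is built by chondrocytes, which fill their surroundings with type II collagen fibrils that also hold type IX and type XI collagen, and with proteoglycans whose sugar chains bind water. At the ends of the future bones the cartilage borders on the forming joint, where cells of the interzone lower their cartilage genes and express joint genes such as Gdf5. Perichondrium, a fibrous sheath, covers the other surfaces. The comparison asks how the cartilage tagged as border zone differs from the cartilage tagged as the reference of the same animal.

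Values are probe counts, brought by the authors to one upper quartile for all regions, and a difference is reference minus border-zone on the log2(value + 1) scale, with border-zone regions averaged within each animal, fitted over the 4 animals with limma. Each reference value rests on 1 region, and regions drawn on the same section share an animal, so the animal was the replicate. The labels call the animals biological replicates and put them in 1 batch. A p-value here sets the mean difference of these 4 animals against a variance pooled over targets of like level. It does not measure a target's own spread between animals, and it speaks for these 4 animals only. Total counts in the 64 regions ran from 55470 to 577752, and the reference regions held 163000, 190052, 300288 and 124264 counts in control 1, control 2, GOF 1 and GOF 2. The negative probe, which measures background, stood between 2.00 and 4.29, so values of a few units lie near background and their differences are understated. Regions were drawn on sections stained for Sox9 protein and for nucleic acid, so the Sox9 transcript is no finding here. A region holds many cells, and fewer cells of a type cannot be told apart from less RNA per cell in any value given here.

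The reference regions held more of many cartilage matrix transcripts than the border-zone regions of the same animal, with Epyc, Matn1 and Col2a1 at 7.55-fold, 3.21-fold and 2.29-fold, and less of several transcripts of joint, perichondrial and fibrous tissue, among them Sfrp2, Prrx1 and Col12a1. Of 19346 targets, 91 (0.47%) were called higher in reference cartilage and 75 (0.388%) lower at a limma adjusted p below 0.05. The calls were therefore 54.8% higher, a split that moved with the scaling of the regions and the tool: it was 41.9% with regions scaled to equal total counts (83 higher), 36% with equal medians (32 higher, 57 lower) and 65.1% with DESeq2 on recovered counts (84 higher, 45 lower). The differences of called targets ran from 2.92 for Epyc to -2.06 for Cre, against a median of 0.03 over all targets, and 14 called targets did not have the same sign in all 4 animals. A stricter count by range gave 22 targets (0.114%) whose reference region stood above every border-zone region of its own animal in all 4 animals, and 3 targets (0.0155%) below. Of these, 20 and 3 were also called. The number of calls rests on the variance that limma pools over targets of like level. With 1 variance prior for all targets, each target's own variance also counted (13.79 prior and 3 residual degrees of freedom). That fit left 6 calls (Epyc, Colgalt2, Matn1, Galnt18, Nfib and Cre, the last chosen after its values were seen). A fit with no pooling left 0, with 1326 targets at an unadjusted p below 0.05. Leaving out GOF 1 left 91 calls and leaving out GOF 2 left 183. An exact sign-flip test over 4 animals cannot give a two-sided p below 0.125.

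**Figure D1:**
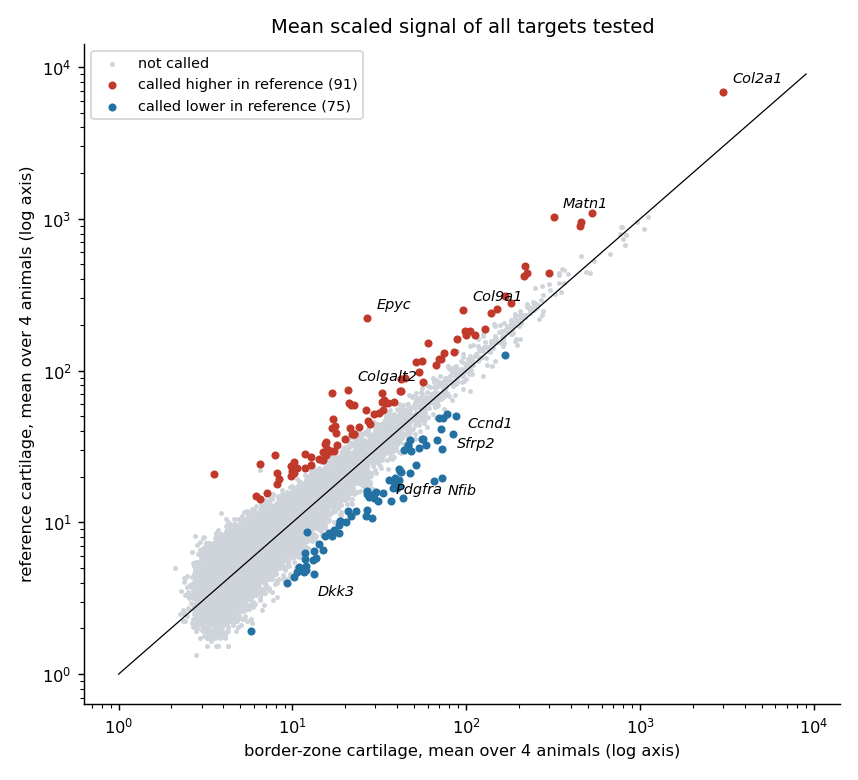
Mean scaled signal of each of 19346 targets in border-zone cartilage (horizontal, log axis) and reference cartilage (vertical, log axis), each the mean over 4 animals, with the 91 targets called higher in red and the 75 called lower in blue. Epyc stands farthest above the line of equality, and Col2a1 has the highest value in both types.

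Epyc, Matn1 and Col2a1, taken as markers of reference cartilage, were all higher there. Epyc encodes epiphycan, a small leucine-rich proteoglycan of epiphyseal cartilage, and lies at chr10:97644068-97681908 (GRCm38.p6). Its reference values were 193 in control 1, 318 in control 2, 268 in GOF 1 and 105.2 in GOF 2. Border-zone regions of the same animals had a lowest, median and highest value of 14.3, 36.7 and 84.7, of 13.3, 25.6 and 139.2, of 6.22, 21.8 and 94.3, and of 5.44, 17.5 and 59.2. Every reference region was above every border-zone region of its animal, although the reference regions themselves spanned a wide range, with GOF 2 the lowest. The difference was 2.92 ± 0.16 (SE, n = 4 animals), a 7.55-fold rise, with a limma adjusted p of 7.42e-73. This SE and the others given come from the variance pooled over targets of like level, not from the gene's own spread. The Epyc differences were 2.38 in control 1, 3.36 in control 2, 3.59 in GOF 1 and 2.33 in GOF 2.

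Matn1, which encodes matrilin-1, an adaptor that links collagen fibrils to proteoglycans, had reference values of 1128, 1216, 845 and 894 in the same order of animals. The border-zone medians were 319, 316, 303 and 426, and the highest border-zone regions reached 635, 687, 609 and 633. Here too the groups did not overlap within any animal, and the GOF 2 animal had the smallest difference. The fit gave 1.68 ± 0.15 (SE), a 3.21-fold rise (limma adjusted p = 1.27e-26). Col2a1, the chain of type II collagen and a custom probe in this set, had reference values of 7347, 7690, 5854 and 6630 against border-zone medians of 3106, 3370, 2794 and 3381. The highest border-zone regions, at 4450, 5004, 5090 and 5366, were below every reference region. Col2a1 rose by 1.198 ± 0.18 (SE; limma adjusted p = 8.10e-09) and took 2.90%, 3.35%, 2.51% and 2.94% of all counts in the reference regions, against border-zone medians of 1.39%, 1.44%, 1.26% and 1.51%. With regions scaled to equal medians the Col2a1 difference was 1.14 and was not called (limma adjusted p = 0.505), and over 17 alternatives its adjusted p ran from 4.87e-45 to 0.505.

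The RefSeq promoters of the 2 leading cartilage genes and of Sfrp2, a gene that fell, are shown so that the region from 250 bases before to 50 after each start can be read beside these values. Capitals mark the words AACAATG and AACAAAG or their reverse complements, forms of the motif bound by SOX proteins, which were searched on both strands. All are GRCm38.p6, plus strand, at chr10:97643818-97644117 for Epyc (the start listed first), chr4:130944135-130944434 for Matn1 and chr3:83766071-83766370 for Sfrp2.
Epyc: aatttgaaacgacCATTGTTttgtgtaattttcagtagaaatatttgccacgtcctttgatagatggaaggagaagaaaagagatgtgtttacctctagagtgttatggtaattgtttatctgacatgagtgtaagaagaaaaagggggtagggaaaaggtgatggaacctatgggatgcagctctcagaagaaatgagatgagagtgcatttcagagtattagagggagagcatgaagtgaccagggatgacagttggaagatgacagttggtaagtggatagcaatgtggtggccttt
Matn1: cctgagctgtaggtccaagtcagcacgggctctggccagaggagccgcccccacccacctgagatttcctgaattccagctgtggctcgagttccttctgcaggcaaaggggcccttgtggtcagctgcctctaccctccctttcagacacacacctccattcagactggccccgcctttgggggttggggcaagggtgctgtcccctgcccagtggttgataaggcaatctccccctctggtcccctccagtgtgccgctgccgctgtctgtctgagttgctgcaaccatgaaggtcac
Sfrp2: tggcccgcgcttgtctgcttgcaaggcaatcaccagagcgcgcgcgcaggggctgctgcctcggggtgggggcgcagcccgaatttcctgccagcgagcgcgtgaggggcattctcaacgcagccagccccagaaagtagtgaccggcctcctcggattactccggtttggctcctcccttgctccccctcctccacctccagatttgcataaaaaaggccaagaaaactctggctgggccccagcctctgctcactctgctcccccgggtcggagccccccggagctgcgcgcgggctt
The Epyc window held 1 such word, and those of Matn1 and Sfrp2 held none. Of the called targets, 63 that rose and 49 that fell had a promoter in the table, and 3 and 1 of them held a word (4.76% and 2.04%), against 7.46% of the 15274 promoters matched to tested targets. The match describes these letters alone.

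**Figure D2:**
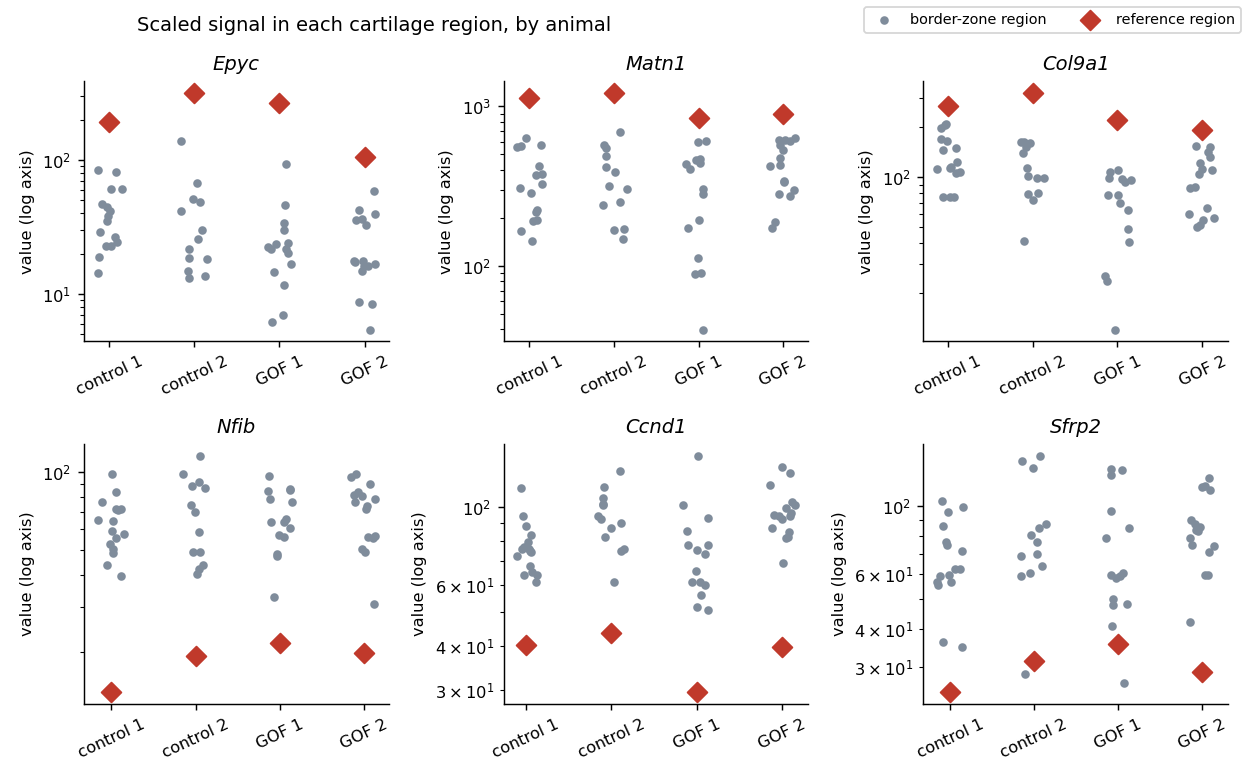
Scaled signal (log axis) of Epyc, Matn1, Col9a1, Nfib, Ccnd1 and Sfrp2 in each border-zone region (grey points) and in the reference region (red diamond), by animal. The reference region lies above all border-zone regions of its animal for the 3 upper genes and below all of them for Nfib and Ccnd1, while Sfrp2 overlaps in control 2 and GOF 1.

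The 5 genes for type IX and type XI collagen also rose. Col9a1 had reference values of 270, 323, 221 and 194 against highest border-zone regions of 209, 163.2, 111.2 and 155.01, a difference of 1.41 ± 0.15 (SE; limma adjusted p = 1.75e-18). Its partner chains Col9a2 and Col9a3 rose by 1.06 and 1.04. Col11a1 and Col11a2 rose by 1.00 and 1.17. All 5 had reference regions above every border-zone region in all 4 animals. Among proteoglycan genes, Acan (aggrecan) rose by 0.98 and Hapln1, the link protein that ties aggrecan to hyaluronan, by 0.96, both picked here after their values were seen. Over the list of cartilage matrix and collagen network genes, 33 were measured, 18 were called higher (54.5%, against 0.47% of all targets) and 1 lower, and the median difference was 0.78. These shares and those of the other lists describe lists chosen with earlier results known, and they were not tested. The gene that fell was Fmod, which encodes fibromodulin, a collagen-binding proteoglycan also abundant in tendon, with a mean of 15.8 ± 5.05 in reference and 30.2 ± 9.59 in border-zone cartilage (SD, n = 4). Without control 2 its difference was -0.56 and was not called. Matn3 and Matn4, relatives of matrilin-1, were not called, with differences of 0.34 and 0.38.

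Rises outside the fibrillar and associated collagens included those of enzymes, an adaptor and further matrix proteins. Colgalt2, a collagen galactosyltransferase, had reference values of 82.4, 66.5, 68.4 and 81.6 against border-zone medians of 21.8, 20.5, 19.04 and 18.9, and none of the groups overlapped. It rose by 1.78 ± 0.17 (SE; limma adjusted p = 5.15e-21). Galnt18, of the family that starts O-linked sugar chains on proteins, rose by 1.68 from a low border-zone mean of 6.48. Irs1, the adaptor of the insulin and insulin-like growth factor receptors, had reference values of 85.5, 70.1, 53.6 and 34.4 and rose by 1.41 ± 0.18 (SE; limma adjusted p = 4.58e-12). In GOF 2 the Irs1 reference value of 34.4 was barely above the highest border-zone region at 34.2. Susd5, a member of the matrix list, rose by 1.32, Chadl, a chondroadherin-like cartilage protein, by 1.03, and Hspg2, the proteoglycan perlecan, by 1.02. All 6 of these genes stood above every border-zone region in each animal.

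Some genes that serve matrix production were called higher, by smaller amounts. In the list for collagen folding and the secretory pathway, 5 of 45 measured genes (11.1%, against 0.47% of all targets) were called higher and 0 lower, with a median of 0.32. They were Plod2, a lysyl hydroxylase (0.85), the prolyl hydroxylase subunits P4ha2 (0.84), P4ha1 (0.76) and P4hb (0.60), and Serpinh1, the collagen chaperone HSP47 (0.77). Plod2 had reference values of 202, 135.4, 163.2 and 145.04, each above the highest border-zone region of its animal, by a narrow margin in control 2 where that region reached 133.8. Without GOF 1 the calls of P4ha2 (0.64), P4ha1 (0.68) and Serpinh1 (0.63) were lost. For glycosaminoglycan synthesis and sulfation, 4 of 34 (11.8%) were called higher and 0 lower, with a median of 0.28. These were Slc35d1 (1.08), which carries nucleotide sugars into the endoplasmic reticulum, the sulfate transporter Slc26a2 (0.74), Xylt1 (0.71), which starts the chains, and Papss2 (0.60), which makes the sulfate donor. The Slc26a2 and Papss2 calls were lost without control 1 (0.65 and 0.47), control 2 (0.73 and 0.61) or GOF 1 (0.70 and 0.57), and the Xylt1 call was lost whichever animal was left out, at differences from 0.64 to 0.78.

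The list of glycolysis and hypoxia genes had 34 of 37 members above 0, against 10337 of 19346 targets, and a median of 0.36. Of its members, 3 were called higher (8.11%, against 0.47% of all targets) and 0 lower. The called genes were Slc16a3, a lactate exporter (0.79), P4ha1, which is shared with the folding list, and Gapdh (0.51, limma adjusted p = 0.049). Gapdh reached 594, 320, 488 and 354 in reference cartilage, but in control 2 and GOF 2 these values lay inside the border-zone range, whose highest regions there were 397 and 357. The Gapdh call was lost without control 1 (0.41) or GOF 1 (0.39). The median of this list was 0.60 in control 1 and 0.07 in control 2, so animals differed more than for the matrix list, whose animal medians ran from 0.61 to 0.88.

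**Figure D3:**
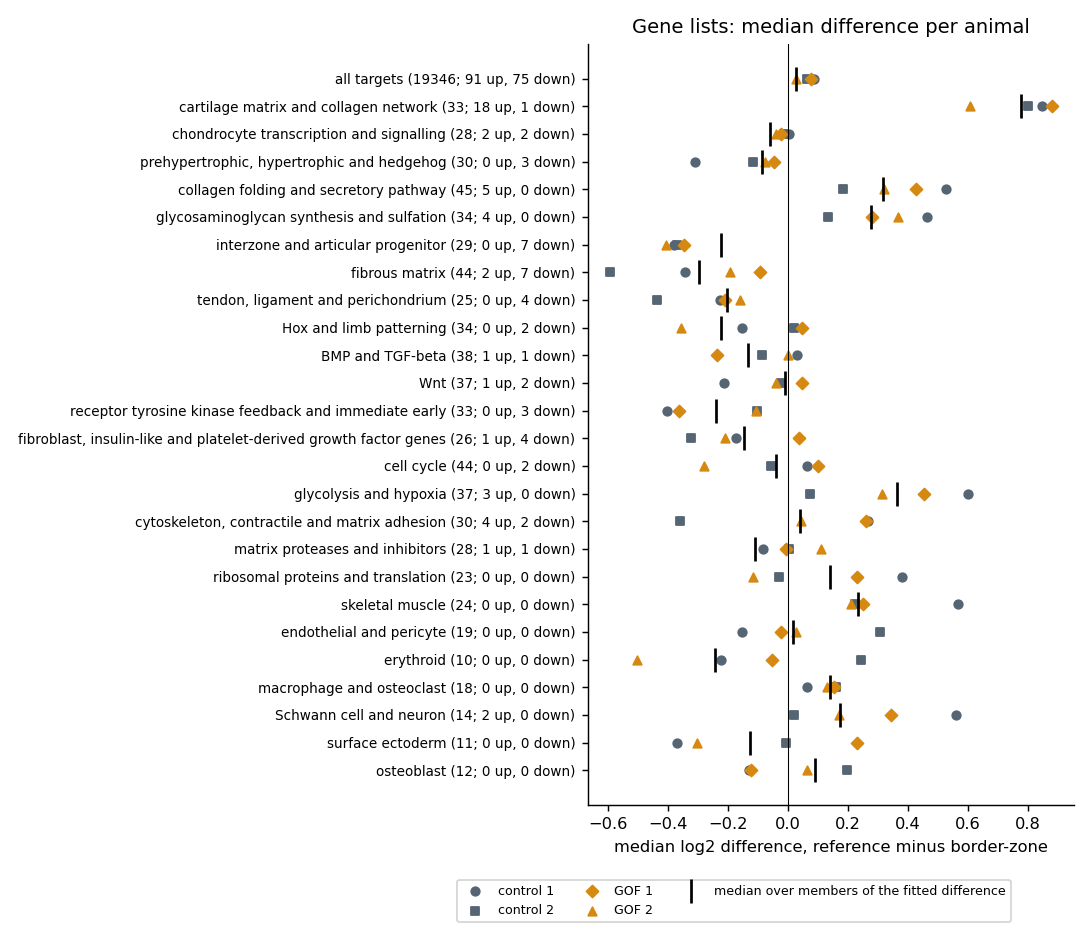
Median log2 difference, reference minus border-zone, over the measured members of each gene list, for each animal (grey symbols control, orange symbols GOF) and for the fitted difference over 4 animals (black bar), with the measured members and calls in brackets. The bar is the median over members of an average over animals and can lie outside the 4 animal medians. The cartilage matrix list lies between 0.61 and 0.88 in all animals.

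Transcription factors and receptors of chondrocytes were called in both directions. Sox9 had means of 232 ± 14.9 in reference and 203 ± 22.6 in border-zone cartilage (SD, n = 4), a difference of 0.20 with overlapping ranges in every animal (limma adjusted p = 0.83). Of 28 measured genes in the chondrocyte transcription and signalling list, 2 were called higher and 2 lower (7.14% each, against 0.47% and 0.388% of all targets), and the median was -0.06. Nkx3-2, a homeobox repressor that favours the cartilage fate, had reference values of 20.2, 31.4, 19.4 and 19.9 and rose by 1.01 ± 0.22 (SE; limma adjusted p = 0.0011), with an overlap in both GOF animals. Without control 2 its difference was 0.91, with no call. Fgfr3, the fibroblast growth factor receptor that restrains chondrocyte growth, rose by 0.88 and stood above all border-zone regions in 3 of 4 animals. Foxc1, a forkhead factor of skeletal mesenchyme, had reference values of 26.4, 15.7, 28.7 and 58.01 against border-zone medians of 46.3, 56.7, 70.4 and 74.1 and fell by 0.96. Hoxa11, a limb patterning factor, fell by 1.02 from a border-zone mean of 11.9, and its call was lost without control 1 (-0.77), GOF 1 (-1.03) or GOF 2 (-0.99). Sox5 and Sox6, partners of Sox9, were not called, at 0.44 and -0.28.

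Nfib, a transcription factor of the nuclear factor I family at chr4:82290173-82506751, fell farther than any other called mouse gene. Its reference values of 13.99, 19.3, 21.8 and 19.9 stood below the lowest border-zone regions of the same animals, at 39.6, 40.2, 32.6 and 30.8. The difference was -1.75 ± 0.18 (SE; limma adjusted p = 2.79e-19). Ccnd1, the cell cycle regulator cyclin D1 at chr7:144929931-144939831, had reference values of 40.4, 43.5, 29.5 and 39.9, and the lowest border-zone regions were 61.2, 61.2, 50.8 and 69.3. Again no region overlapped, and Ccnd1 fell by 1.12 (limma adjusted p = 6.69e-09). Scara3, a scavenger receptor family member, was the third target below every border-zone region in all 4 animals and fell by 1.12, from a border-zone mean of 13.6 to 5.83, a level close to background. Its call was lost without GOF 1 (-1.09) or GOF 2 (-0.92).

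Few other cell cycle genes were called. Of 44 measured, 2 were called lower (Ccnd1 and the related Ccnd2, which fell by 0.60; 4.55%, against 0.388% of all targets) and 0 higher, and the median was -0.04. The Ccnd2 call was lost without GOF 1 (-0.59) or GOF 2 (-0.38). The proliferation marker Mki67 had means of 35.5 ± 8.79 and 40.9 ± 3.04 in reference and border-zone cartilage (SD, n = 4), and its difference of -0.23 was not called.

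Within the list of prehypertrophic, hypertrophic and hedgehog genes, 3 of 30 (10%, against 0.388% of all targets) were called lower and 0 higher, with a median of -0.09. Gas1, a co-receptor for hedgehog ligands, had reference values of 20.2, 21.8, 17.9 and 36.3 against border-zone medians of 47.1, 63.1, 46.2 and 56.5, and it fell by 1.11 (limma adjusted p = 2.77e-07). In 2 of 4 animals its reference value lay inside the border-zone range. Boc, a second co-receptor, fell by 0.73. Pthlh, the parathyroid hormone-like ligand made by chondrocytes near the joint, fell by 0.91, from a border-zone mean of 15.4 to 8.14. The Boc call was lost without control 1 (-0.56) or control 2 (-0.65), and the Pthlh call without control 1 (-0.74), GOF 1 (-0.92) or GOF 2 (-0.85). Ihh and Col10a1, markers of prehypertrophic and hypertrophic chondrocytes, stood near background in both types, at 5.01 and 4.06 in reference cartilage.

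Of 29 measured members of the interzone and articular progenitor list, 7 were called lower in reference cartilage (24.1%, against 0.388% of all targets) and 0 higher, with a median of -0.23. Sfrp2, a secreted Wnt antagonist, had reference values of 24.9, 31.4, 35.7 and 29.01 against border-zone medians of 62.2, 76.1, 59.8 and 83.2. It fell by 1.24 (limma adjusted p = 1.78e-10) and lay below all border-zone regions in control 1 and GOF 2. Sulf1, a sulfatase that trims heparan sulfate, fell by 1.29, and the hyaluronan-binding proteoglycan Vcan by 1.23. Dkk3, of the Dickkopf family, fell by 1.49 from a border-zone mean of 13.3. Its reference values of 6.22, 2.42, 7.77 and 1.81 corresponded to 4, 2, 10 and 1 recovered counts, so the size of that fall is poorly set. Without control 2 the Dkk3 difference was -1.17 and was not called. Erg, Barx1 and Creb5 were the other called members, with falls of 0.97, 0.94 and 0.91. Gdf5, a custom probe here and the classic interzone ligand, had means of 4.55 ± 1.41 and 8.08 ± 1.91 (SD, n = 4) and a difference of -0.72 that was not called (limma adjusted p = 0.48).

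Fibrous connective tissue genes were called in both directions. Of 44 measured members of the fibrous matrix list, 7 were called lower (15.9%, against 0.388% of all targets) and 2 higher (4.55%, against 0.47%), and the median was -0.30. Col12a1, a collagen that sits on the surface of fibrils in dense connective tissue, had reference values of 17.1, 12.1, 13.2 and 12.7 against border-zone medians of 32.2, 35.7, 44.2 and 37.7, and it fell by 1.37 (limma adjusted p = 5.09e-09). Only in GOF 1 did its reference value lie inside the border-zone range. Fbn2, the microfibril protein fibrillin-2, fell by 1.21. Lum (lumican), another small proteoglycan, went the other way, at 66.8, 39.9, 51.3 and 34.4 against border-zone medians of 18.6, 22.7, 14.504 and 14.7, a rise of 1.40. Col15a1 rose by 1.34. Col1a1, the main collagen of bone and fibrous tissue and a custom probe, had means of 148.04 ± 51.03 and 195 ± 19.04 (SD, n = 4), and its difference of -0.46 was not called. edgeR on recovered counts called Col1a1 lower, with 6 other members of this list that limma did not call.

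In the tendon, ligament and perichondrium list, 4 of 25 measured genes (16%, against 0.388% of all targets) were called lower and 0 higher, with a median of -0.20. They were Prrx1, Pdgfra, Fmod and Foxp1, a forkhead factor that fell by 0.94 and whose call was lost without control 2 (-0.99) or GOF 1 (-0.66). Prrx1, the limb mesenchyme factor whose regulatory DNA drives the Cre used here, had reference values of 18.6, 7.25, 11.7 and 5.44 against border-zone medians of 33.4, 31.1, 21.8 and 28.6, and it fell by 1.46 (limma adjusted p = 1.00e-08). The target for Cre itself, picked after its values were seen, had reference values of 21.8, 6.04, 36.5 and 14.504 against border-zone medians of 72.1, 60.7, 77.7 and 87.7, and it fell by 2.06 ± 0.18 (SE; limma adjusted p = 9.26e-27). Both were lower in all 4 animals, and in 2 of them the reference value lay inside the border-zone range. Pdgfra, the receptor altered in the GOF animals, had reference values of 13.99, 22.96, 29.5 and 23.6 against border-zone medians of 33.9, 39.4, 49.9 and 44.2. It fell by 0.87 (limma adjusted p = 0.00062), below every border-zone region in the controls and inside their range in both GOF animals. Its genotype difference was 0.22 and was not called.

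Among genes of fibroblast, insulin-like and platelet-derived growth factors, 1 of 26 was called higher (Fgfr3; 3.85%, against 0.47% of all targets) and 4 lower (15.4%, against 0.388%), with a median of -0.15. Besides Pdgfra and Igfbp5 these were Pdgfc, a ligand of that receptor (-1.17, from a border-zone mean of 10.2 to 4.38), and the receptor Fgfr1 (-0.73). The Pdgfc call was lost without control 1 (-0.86) or GOF 1 (-1.11), and Igfbp5 is described with the genotypes. The receptor tyrosine kinase feedback and immediate early list had 3 of 33 called lower (9.09%), 0 higher and a median of -0.24. Jun, an immediate early factor, had reference values of 20.2, 2.42, 18.6 and 7.25 against border-zone medians of 20.8, 22.96, 29.01 and 36.9. Its fall of 1.39 was therefore unequal between animals, and its difference was -0.95 without control 2 and -1.80 without control 1, called in both cases. The feedback inhibitor Spry2 fell by 0.86, with no call without GOF 1 (-0.83) or GOF 2 (-0.66), and Ccnd1 belongs to this list as well. For BMP and TGF-beta genes, 1 of 38 was called in each direction (2.63%) with a median of -0.13: the BMP antagonist Nog rose by 0.72, with 3 of 4 animals positive, and Ltbp3, which binds latent TGF-beta, fell by 0.64. The Nog call was lost without GOF 1 (0.32) or GOF 2 (0.64), and the Ltbp3 call without control 1 (-0.42), control 2 (-0.71) or GOF 1 (-0.57). For Wnt genes, 1 of 37 was called higher (2.70%) and 2 lower (5.41%) with a median of -0.01, and the riser was Sfrp1 (0.84), a relative of the falling Sfrp2.

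The remaining lists were as follows. Cytoskeleton and matrix adhesion genes had 4 of 30 called higher (13.3%, against 0.47% of all targets) and 2 lower (6.67%, against 0.388%) with a median of 0.04, led by the basement membrane protein Nid2 (1.22) and by Tpm1, a tropomyosin (-1.12), and Cdh11, a mesenchymal cadherin (-1.02). The Nid2 rise rested largely on control 1, where its reference value was 122.8 against 43.5, 34.96 and 36.3 in the other animals, and without control 1 its difference was 0.70 and was not called. The Cdh11 call was lost without control 2 (-0.75). Matrix proteases and inhibitors had 1 of 28 called in each direction (3.57%) and a median of -0.11. Serpine2, a protease inhibitor, rose by 0.85, with reference values of 43.5, 60.4, 118.1 and 230, and the protease Htra1 fell by 1.15. The Serpine2 call was lost without GOF 2 (0.49), and the Htra1 call without control 2 (-1.22), GOF 1 (-1.04) or GOF 2 (-0.97). Hox and limb patterning genes had 2 of 34 called lower (5.88%) and 0 higher with a median of -0.22, and besides Hoxa11 this was the hindlimb factor Pitx1 (-0.65), whose call was lost without control 2 (-0.57) or GOF 1 (-0.59). Of 23 ribosomal and translation genes none was called by limma, 21 were above 0, and their median was 0.14.

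The 3 marker genes had border-zone levels between those of the joint tissues and reference cartilage. Col2a1 had means of 509 in inter-joint space, 1134 in inter-joint perichondrium, 3006 in border-zone and 6880 in reference cartilage. Matn1 had 54.7, 86.9, 318 and 1021 in the same order. Epyc was near 11.2 and 11.8 in the first pair, 26.9 in border-zone and 221 in reference cartilage. Of the genes called lower, Sfrp2 had 294, 201, 72.8 and 30.3, and Sulf1 147.4, 103.9, 39.97 and 16.8. Nfib had 90.5, 86.5, 64.9 and 18.8. Ccnd1 did not share that order, with 53.4, 95.99, 84.1 and 38.3. These are means over 4 animals given side by side, with no test, since every comparison with border-zone cartilage would share its regions.

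**Figure D4:**
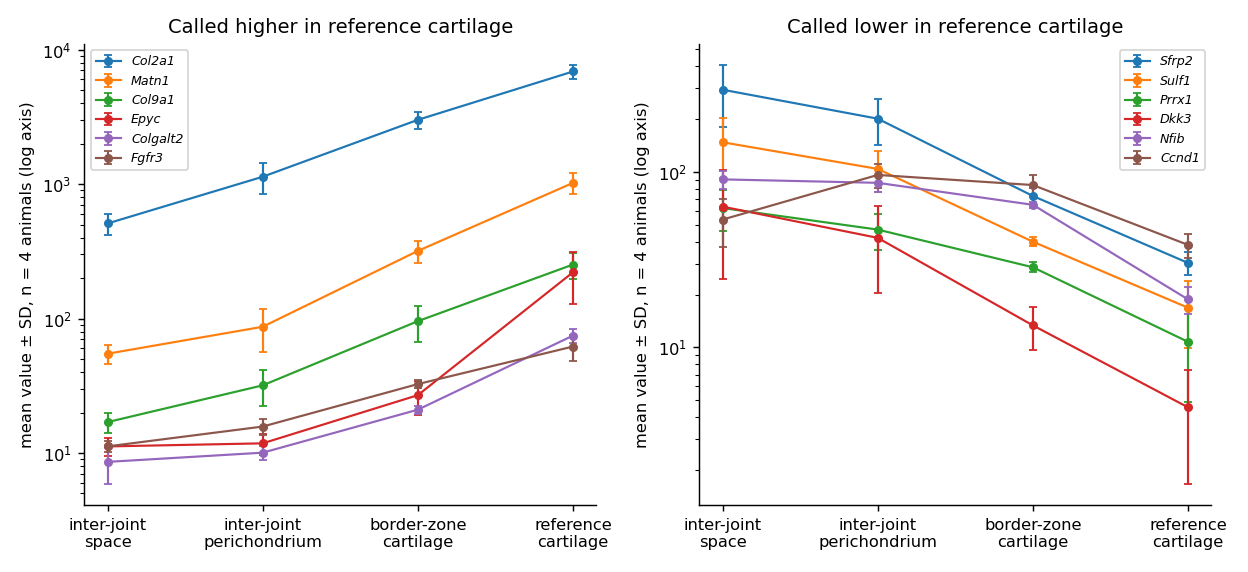
Mean scaled signal ± SD over 4 animals (log axis) in inter-joint space, inter-joint perichondrium, border-zone cartilage and reference cartilage, for 6 genes called higher (left) and 6 called lower (right) in reference cartilage. Col2a1 climbs from 509 to 6880 across the 4 region types and Sfrp2 descends from 294 to 30.3, while Ccnd1 peaks at 95.99 in the perichondrium.

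Markers of other cell types were examined in the same regions. No member of the lists for skeletal muscle (24 measured, median 0.23), endothelium and pericytes (19, 0.02), erythroid cells (10, -0.24), macrophages and osteoclasts (18, 0.14), surface ectoderm (11, -0.13) or osteoblasts (12, 0.09) was called by limma. Of the measured members of these 6 lists and the ribosomal list, 11 had an unadjusted limma p below 0.05, and edgeR and DESeq2 called 1 each. Over all targets, 1514 of 19346 had an unadjusted limma p below 0.05. Calls were rare over all targets, at 0.47% higher and 0.388% lower. The lack of a limma call among so few members is therefore near that rate and decides nothing about these cell types. The summed muscle level in the reference region was 164.7 in control 1, above all its border-zone regions, whose highest sum was 155.9, and 116.03, 130.5 and 123.3 in the other animals, inside their range. Of 14 Schwann cell and neuron genes, 2 were called higher (14.3%, against 0.47% of all targets), among them S100b (1.11), which chondrocytes also express, and the median was 0.17. The S100b call was lost without control 2 (0.85). The sum over that list was 121.2, 126.9, 121.2 and 123.3 in reference cartilage against border-zone medians of 95.4, 93.1, 90.6 and 88.8, above every border-zone region in all animals but control 1. Sox10 had means of 22.1 and 14.7 and was not called. The part of such cells in the results was not tested.

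Whether the difference between the cartilage types depended on genotype was tested on the 4 paired differences, and 2 of 19346 targets (0.0103%) were called. Sdc1, the heparan sulfate proteoglycan syndecan-1, had reference values of 1.55 in control 1, 1.21 in control 2, 17.1 in GOF 1 and 14.504 in GOF 2. Border-zone medians were 17.4, 12.2, 7.77 and 10.9. The differences in that order of animals were -2.82, -2.55, 0.84 and 0.41, a genotype difference of 3.31 (limma adjusted p = 0.000107). The 2 control reference values were 1 recovered count each, below the negative probe at 3.15 and 3.255, so the level there is at background, and each rests on a single region. No deposited value was 0 and the smallest recovered count was 1, so both values stood at the floor of the data. The size of the genotype difference moved with the treatment of low values. It was 2.065 with a pseudocount of 5 and 4.411 with the negative probe subtracted. Over all 4 animals Sdc1 was called lower by 1.03, a call that was lost without control 1 (-0.43) or control 2 (-0.52), and its difference was -1.652 without GOF 1.

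Igfbp5, which binds insulin-like growth factors, had reference values of 41.96, 55.6, 96.3 and 314 against border-zone medians of 155.97, 174.04, 195 and 240. Its reference region lay below all border-zone regions in control 1, near the lower end of their range in control 2, and inside the range in both GOF animals. Its genotype difference was 1.58 (limma adjusted p = 0.037), and it was not called without control 1 (1.49), control 2 (1.67) or GOF 2 (0.95). Over all 4 animals Igfbp5 was called lower by 0.83, with no call without control 1 (-0.54) or control 2 (-0.60) and a difference of -1.30 without GOF 2. Cacng7, next by p, differed by 1.78 and was not called (limma adjusted p = 0.43). At an unadjusted limma p below 0.05 there were 854 of 19346 targets, a share below the 0.05 that chance alone gives. With 2 animals per genotype and 1 reference region each, a difference between genotypes cannot be told apart from one between single regions.

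**Figure D5:**
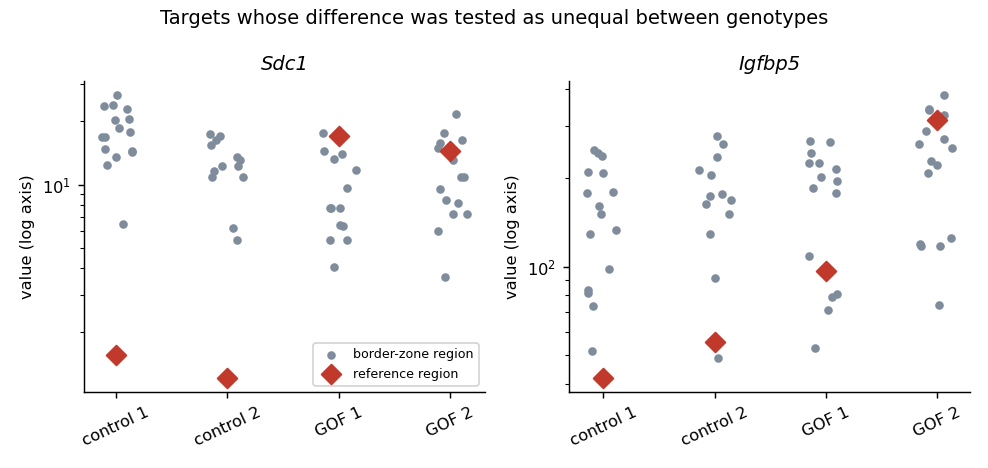
Scaled signal (log axis) of Sdc1 and Igfbp5 in each border-zone region (grey points) and in the reference region (red diamond) of each animal. The Sdc1 reference regions of the 2 controls lie at 1.55 and 1.21, below all their border-zone regions, and those of the GOF animals lie at 17.1 and 14.504, inside the range.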

How the data were processed

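RNA was measured with the GeoMx Mouse Whole Transcriptome Atlas plus 5 custom targets, per the labels, in knee sections of 4 embryos. The deposited signal is on a linear scale: target counts that the authors normalized so that the upper quartile over all targets is the same (10.878) in every region, with no filter, per the file headers. The submitters' processing notes list Seurat and mm10 without a role. How reads were counted is not given. Of all values, 99.985% were whole multiples of the value of 1 count in their region (tolerance 0.01 count), so counts and total counts per region were recovered, while 3 targets were not whole in most regions. Sample and type came from the column tags, and all regions were mapped to an animal.

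Values were taken as log2(value + 1) and averaged within each animal and region type. limma 3.58.1 in R 4.3.3 (lmFit, eBayes with trend) was fitted to the 8 resulting values with the animal as a fixed block, with Benjamini-Hochberg adjustment over 19346 targets (all but the negative probe) and a threshold of 0.05. The fit had 3 residual degrees of freedom and pooled the variance fully over targets of like level. Each pair comes from 1 animal. The genotype difference was fitted with limma to the 4 paired differences, with 2 residual degrees of freedom. Type means are back-transformed means of log2(value + 1) per animal, averaged over animals, with the SD over animals.

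The regions, the 25 gene lists and the tests were chosen with earlier results of these data known. Genes were named by rule: up to 15 rises and 15 falls among called targets outside the border-zone range in all 4 animals with a mean of at least 10, up to 4 called members of each list by size, the markers, Sox9, Pdgfra, and the 3 lowest p-values for genotype. Others are said to have been chosen after their values were seen, as were Matn3, Matn4, Sox5, Sox6, Mki67, Ihh, Col10a1, Gdf5, Col1a1, Erg, Barx1, Creb5, P4hb, Fgfr1 and Sox10 from the lists. Some list members are not reported here. Alternatives were a pseudocount of 5, a filter on a mean value above 5, total count and median scaling, subtraction of the negative probe, other summaries of the border-zone regions, edgeR 4.0.16 and DESeq2 1.42.0 on recovered counts, other fits and leaving out each animal. Other variance priors, and the last choices for the genotype difference, were added after the data were seen. The fit was also run on simulated counts, with animal effects equal in both region types and the same dispersion for every target. No target there had a spread of paired differences of its own beyond its level. That run therefore cannot judge calls that rest on the pooled variance. Gene positions and promoters are from RefSeq (GRCm38.p6), to which 19224 targets were matched by symbol.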

Additional observations from a re-analysis of the deposited data

Results flagged for a closer look

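Dixon's gap test was run on the 4 animal differences of each of 65 named genes, and 4 genes had an animal apart from the rest, where chance alone gives about 1 in 20. The Matn1 difference was 1.180 in GOF 2 and between 1.79 and 1.91 in the other 3 animals. The Fgfr3 difference was 0.430 in GOF 2, against 1.00 to 1.07 in the others. The Hspg2 difference was 1.487 in control 1, against 0.83 to 0.94. The Plod2 difference was 0.551 in control 2, against 0.92 to 0.97. For all 4 genes the odd animal had the same sign as the rest.

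Differences between genotypes that passed the limma threshold were those of Sdc1 (3.305 on the log2 scale, GOF minus control) and Igfbp5 (1.582), each over 2 animals a genotype. For Sdc1 both control animals had a lower and both GOF animals a higher value in reference than in border-zone cartilage. For Igfbp5 the difference was -0.67 in GOF 1 and 0.59 in GOF 2, so the animals of that genotype differed in sign.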

How the results depend on the processing

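No called target changed sign among those called again under another setting. The count of calls, 91 higher and 75 lower, was in all 89 with equal median scaling, 255 with all region types in 1 fit and the animal as a random block, 6 with 1 variance prior for all targets and 0 with no prior (lowest adjusted p 0.1104), and it ran from 91 to 183 when single animals were left out. Without the animal as a block 32 targets were called, 24 higher and 8 lower, and every one of them was also called with it. Of 63 called named genes, 5 (Colgalt2, Epyc, Galnt18, Matn1 and Nfib) were called in all 17 alternatives other than the fit with no prior, which gave 0 calls. A further 13 were called in all of those 17 but the single prior. Under equal median scaling 25 named genes lost their call, under the single prior 58, and under DESeq2 5 of the 57 to which it gave an adjusted p. The genotype count of 2 was 3 with the negative probe subtracted, 3 with edgeR, and 1 with equal median scaling, with border-zone medians, with the 3 border-zone regions nearest in total count and with the single prior, where Sdc1 alone was called. It ran from 1 without GOF 2 to 11 without GOF 1. Sdc1 was called in each of these fits (adjusted p 1.39e-05 to 0.0354), and the Igfbp5 adjusted p ran from 3.75e-05 to 1. List medians near 0 changed sign in 22 of 425 values over lists and alternatives, in 9 lists whose medians were at most 0.134 in size. With the filter on low values the chondrocyte transcription list went from -0.06 to 0.074 and the BMP and TGF-beta list from -0.13 to 0.028. Leaving out single animals gave -0.065 to 0.005 for the latter, with the highest value without GOF 1, and -0.130 to 0.030 for matrix proteases, with 0.003 without control 1 and 0.030 without GOF 1. Without control 1 the Wnt median went from -0.01 to 0.127, and without GOF 2 those of the cell cycle and surface ectoderm lists went to 0.034 and 0.078. The cytoskeleton median was -0.047 without GOF 1 and the endothelial median -0.048 without control 2, and both were also below 0 with total count and equal median scaling. The cause was not tested. Depth limits low targets, since 1 count stood for a value of 1.55 in the control 1 reference region, and each animal has 1 reference region.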

Other observations

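Sterol and fatty acid synthesis genes formed a list put together after the values were seen and therefore not tested as a list. Of 28 measured members, 6 were called higher in reference cartilage and 0 lower, against 0.47% and 0.388% of all targets. Insig1, which restrains the sterol-sensing machinery, had reference values of 35.7, 29.01, 24.9 and 18.1 in control 1, control 2, GOF 1 and GOF 2, against border-zone medians of 12.95, 14.8, 13.99 and 11.8. It rose by 0.98 (limma adjusted p = 0.00066) and lay inside the border-zone range in GOF 2. Msmo1, an enzyme of cholesterol synthesis, also rose by 0.98. Scd1 and Scd2, which desaturate fatty acids, rose by 0.93 and 0.70, Fasn (fatty acid synthase) by 0.68 and Fdps (farnesyl diphosphate synthase) by 0.76. The median over the list was 0.49, with 27 of 28 members above 0, against 10337 of 19346 targets. Sqle, another enzyme of the sterol pathway, was not called at 0.28, nor was Srebf2 (-0.07).

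Several other called targets were picked after their values were seen. C1qtnf3, a secreted protein of the C1q and tumour necrosis factor related family, rose by 1.70, with reference values of 88.6, 109.99, 73.04 and 12.7, and in GOF 2 its difference was -0.03. Pou3f3, a POU family transcription factor, rose by 1.25. Akr1b7, an aldo-keto reductase, was called higher by 1.32 on very unequal reference values of 13.99, 2.42, 3.88 and 63.5. Penk, which encodes proenkephalin, fell by 1.55, from a border-zone mean of 43.04 to 14.6. Nfia, the relative of Nfib, fell by 1.05, with a difference of -1.90 in control 1 and -0.14 in GOF 2. The transcription factors Sox4, Foxp4 and Zfp521 fell by 0.99, 0.97 and 0.90.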
